A study of Mus musculus with 10 samples.

Results

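The 38 genes described here encode proteins that copy the genome and divide the cell, and they were taken from a fixed list of symbols among the 43629 genes counted in 10 RNA sequencing libraries of mouse skeletal muscle; all 38 were found. The list was set by gene function, with earlier results of these data known. The study examined the function of IMP2, an mRNA-binding protein encoded by Igf2bp2, in adult muscle. Total RNA was sequenced from wild-type (WT) muscle (n = 3) and from muscle of mice without IMP2 (KO, n = 3), and RNA recovered by immunoprecipitation (IP) with a home-made IMP2 antibody was sequenced from WT (n = 2) and KO (n = 2) muscle. By the labels, every mouse was a male C57BL/6 animal, 6 weeks old, that had been fed a high-fat diet (HFD) for 2 weeks. The sample labels give the KO genotype as an IMP2 null, while the series describes a muscle-specific knockout; the promoter that drove a recombinase is not given in the sources used here. Whether the libraries of a group came from separate animals is not stated in the labels. The p-values therefore reflect only how these samples varied, and that variation may be technical.

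Cells enter division in an ordered programme. In S phase the MCM helicase opens DNA at replication origins, PCNA clamps the polymerases to the template, and ribonucleotide reductase and thymidylate synthase supply the building blocks. Cyclin A and cyclin B then activate CDK1, the Aurora and Polo kinases build the spindle, kinetochore proteins attach the chromosomes to it, and CDC20 directs the anaphase-promoting complex to end mitosis. Muscle fibres are multinucleate and do not divide, so in muscle these transcripts are known from the mononuclear cells, such as satellite cells, fibroblasts, endothelial cells and leukocytes. Many of the genes are switched on together at G2 and mitosis through CHR elements and CCAAT boxes, and many replication genes at the start of S phase through E2F sites.

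Promoter windows were read to show what the genes share that the list did not use. RefSeq windows (GRCm38.p6, 250 bases before to 50 after the transcription start) were used for 31 of the 38 genes. No window was used for Aurkb, Ccna2, Kif20a, Mcm4, Smc4, Tpx2 and Wee1. The windows below are those of the genes with the smallest p between KO and WT total RNA in 4 functional groups, which are Cdk1, Top2a, Cenpf and Mcm2, and that of Mcm5, a replication gene whose window, like that of Cdk1, held 3 kinds of motif. They are written 5′ to 3′ on the strand of the gene, and capitals mark motif matches on either strand:
Cdk1, chr10:69352863-69353162, minus strand: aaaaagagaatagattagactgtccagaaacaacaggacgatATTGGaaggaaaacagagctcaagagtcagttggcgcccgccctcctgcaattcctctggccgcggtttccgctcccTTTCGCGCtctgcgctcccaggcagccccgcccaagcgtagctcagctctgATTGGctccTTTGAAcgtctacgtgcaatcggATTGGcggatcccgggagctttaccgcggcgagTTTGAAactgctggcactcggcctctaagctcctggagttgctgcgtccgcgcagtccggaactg
Top2a, chr11:99024140-99024439, minus strand: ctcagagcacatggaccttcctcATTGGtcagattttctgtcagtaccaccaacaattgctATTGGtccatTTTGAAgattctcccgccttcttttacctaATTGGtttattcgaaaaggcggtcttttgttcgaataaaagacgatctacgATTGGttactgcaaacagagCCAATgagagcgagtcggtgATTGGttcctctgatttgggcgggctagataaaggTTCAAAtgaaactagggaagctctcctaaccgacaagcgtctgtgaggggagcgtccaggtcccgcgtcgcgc
Cenpf, chr1:189688037-189688336, minus strand: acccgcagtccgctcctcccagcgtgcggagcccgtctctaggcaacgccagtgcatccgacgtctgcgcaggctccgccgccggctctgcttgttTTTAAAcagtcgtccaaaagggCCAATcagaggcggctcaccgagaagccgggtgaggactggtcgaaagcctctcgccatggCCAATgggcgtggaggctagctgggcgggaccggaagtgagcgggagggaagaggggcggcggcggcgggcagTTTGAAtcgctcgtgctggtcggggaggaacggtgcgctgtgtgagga
Mcm2, chr6:88898731-88899030, minus strand: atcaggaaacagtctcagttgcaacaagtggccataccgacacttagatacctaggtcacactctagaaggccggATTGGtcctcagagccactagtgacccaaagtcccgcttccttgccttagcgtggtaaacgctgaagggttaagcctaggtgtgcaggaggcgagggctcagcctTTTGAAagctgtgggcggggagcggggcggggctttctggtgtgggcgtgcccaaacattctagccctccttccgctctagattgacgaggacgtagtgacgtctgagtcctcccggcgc
Mcm5, chr8:75109259-75109558, plus strand: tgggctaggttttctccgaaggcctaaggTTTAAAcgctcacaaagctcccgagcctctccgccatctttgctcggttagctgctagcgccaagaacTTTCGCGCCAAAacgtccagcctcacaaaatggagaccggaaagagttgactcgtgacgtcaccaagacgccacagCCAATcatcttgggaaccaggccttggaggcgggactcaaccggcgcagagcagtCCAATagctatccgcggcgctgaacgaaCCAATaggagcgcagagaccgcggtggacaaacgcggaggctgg

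The Cdk1 window held 2 CHR matches, 3 CCAAT boxes and 1 E2F match. The Top2a window held 2 CHR matches and 6 CCAAT boxes, of which 5 read ATTGG on the strand shown. Cenpf had 2 of each of these motifs, and Mcm2 had 1 of each. In the Mcm5 window the 2 E2F matches overlapped, because the run in capitals reads as TTTCGCGC on the plus strand and as TTTGGCGC on the minus strand.

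A CHR match (TTTGAA or TTTAAA, both strands) was present in 21 of 31 windows (67.7%), against 27.8% of the 27025 RefSeq windows of the same length and 18.8% of the 10005 windows of genes tested in total RNA. A CCAAT box (CCAAT, both strands) was present in 26 of 31 windows (83.9%), against 37.9% and 38.3%. An E2F match (TTTGGCGC, TTTCCCGC, TTTGCCGC or TTTCGCGC, both strands) was present in 5 of 31 windows (16.1%), against 2.32% and 3.98%. The palindromic E-box CACGTG was found in 1 window, that of Tyms. The motifs were unevenly spread over the roles: 18 of 22 windows of mitosis genes and 3 of 9 of replication genes held a CHR match, and 1 of 22 and 4 of 9 held an E2F match. The 4 replication genes with an E2F match were Mcm3, Mcm5, Mcm6 and Mcm7, and the mitosis gene was Cdk1. Nuf2 and Nusap1 held none of these letters in the window. A match describes the letters only.

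**Figure D1:**
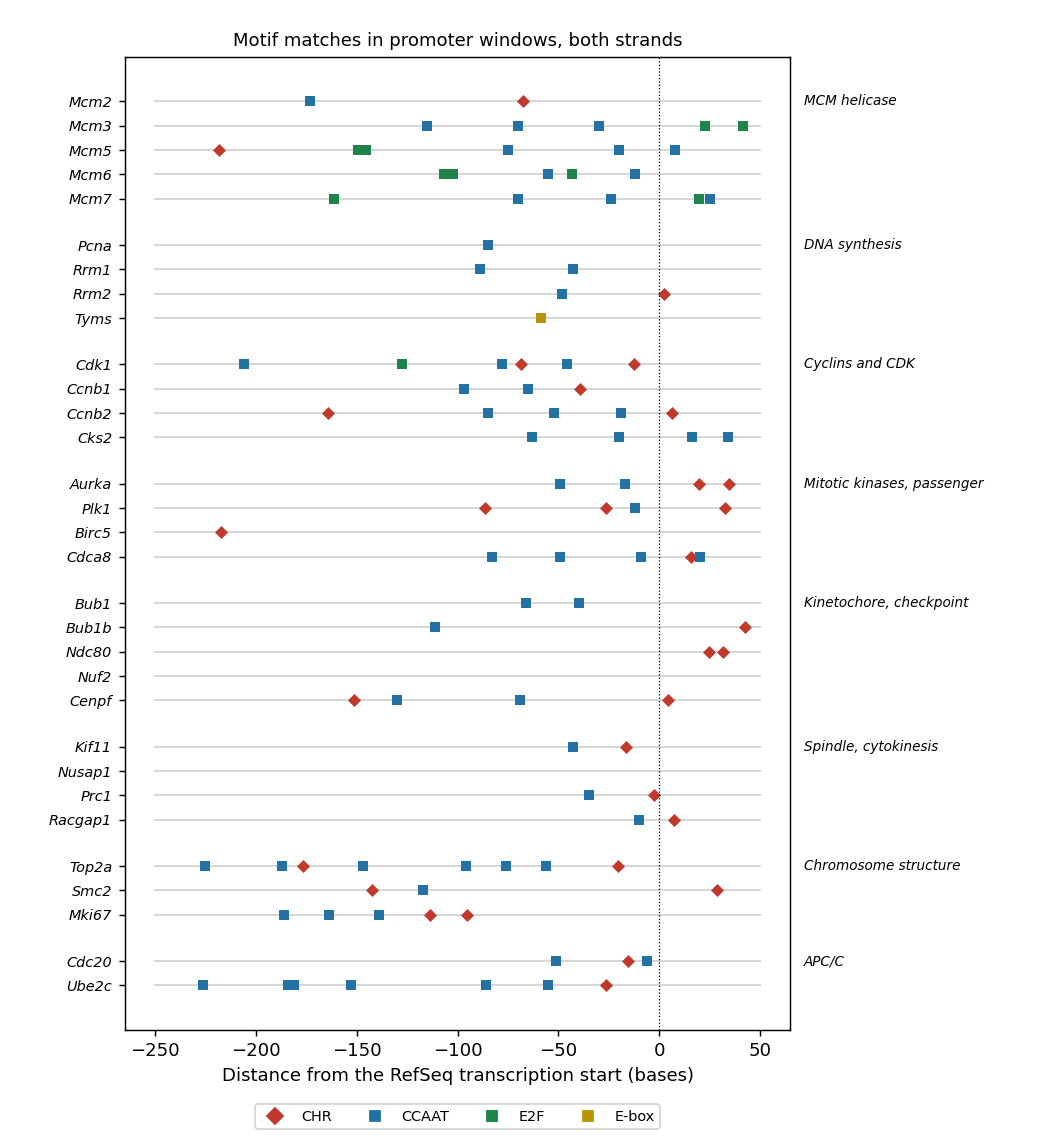
Motif matches in the promoter windows of 31 replication and mitosis genes, by distance in bases from the RefSeq transcription start; diamonds mark CHR matches and squares the other motifs, at the centre of each match, and genes are ordered by role. CHR matches lie in 18 of 22 mitosis windows and 3 of 9 replication windows, while E2F matches lie mostly in the MCM windows.

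Depth and the labels were examined before the genes. Gene counts per library came to 9691580 to 14809788 in total RNA and 917462 to 4037480 in the IP, so a count of 0 allows up to 3 counts, or 0.203 to 0.310 CPM (counts scaled to a library of 1000000) in total RNA and 0.743 to 3.27 CPM in the IP. Intervals and such limits cover counting error only. The fibre markers (11 genes, among them Acta1, Ckm and Myh4) summed to 114810 to 278430 CPM in total RNA and 84663 to 137380 CPM in the IP, with none at 0, as the tissue label says. Igf2bp2 had 35, 37 and 48 counts in the WT and 21, 19 and 21 in the KO total RNA libraries, and 28 and 4 in the WT and 9 and 25 in the KO IP libraries. The difference in total RNA, KO minus WT, was -0.36 ± 0.28 on the log2 scale (SE; adjusted p = 0.897), so the transcript was still counted in the libraries labelled KO, and which part of the gene was removed is not given in the sources used here. KO total RNA library 1 held 46 counts of Xist, which is expressed from the inactive X chromosome of female cells, against at most 3 in each other total RNA library. This library is labelled male, and the source of its Xist RNA was not tested. The same library held 11628 counts of Ins2 against at most 10 in each other one, and WT total RNA library 2 held 2919 counts of Ucp1 against at most 53 in each other one. WT total RNA library 3 stood apart from the other WT libraries, with a chi-square per degree of freedom of 65.2 and 69.8 against 22.0 between those. It had the lowest fibre sum of the total RNA libraries. KO total RNA library 3 also stood apart from the other KO libraries, with 32.0 and 30.9 against 13.3 between those. Its fibre sum was the highest.

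The 38 genes were scarce in muscle. Their summed level was 157, 149 and 144 CPM in the WT and 135, 183 and 203 CPM in the KO total RNA libraries. Per kilobase of exon, the scale on which genes can be compared, mean levels over the 6 total RNA libraries ran from 0.0652 CPM per kb for Ndc80 to 3.51 CPM per kb for Pcna. Both replication and mitosis genes were spread along this range. Pcna was followed by Smc4 (2.90 CPM per kb), which belongs to the condensin complex, and by Rrm1 (2.86 CPM per kb), the large subunit of ribonucleotide reductase. The 6 MCM subunits ranged from 0.633 (Mcm5) to 1.86 CPM per kb (Mcm7), whereas the 5 kinetochore and checkpoint genes ranged from 0.0652 (Ndc80) to 0.429 CPM per kb (Bub1b). The mitosis genes Aurka (2.41 CPM per kb) and Ube2c (2.21 CPM per kb) lay above every MCM subunit. Rrm2, the small reductase subunit that is made in S phase, was at 0.791 CPM per kb, and Tyms, a replication gene, at 0.195 CPM per kb. Cks2 had 0 to 2 counts in each total RNA library, the fewest of the 38 genes.

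In total RNA of KO against WT muscle, most mitosis genes were higher on average, led by Cdk1, Top2a and Cenpf, each near or above 1 on the log2 scale, but no gene passed the test. The quasi-likelihood test of edgeR, adjusted by Benjamini-Hochberg over all genes, called 0 of the 38 genes and 0 of 13169 genes tested (0% called). Of all genes, 267 were higher and 302 lower at an unadjusted p under 0.05, DESeq2 called 5 genes (Cish, Scg3, Prg4, Slc15a2 and Bdh1) and none of the 38, and among the 38 Cdk1 alone had an unadjusted p under 0.05. The filter on low counts left 34 of the 38, without Ccnb1, Cks2, Bub1 and Ndc80. Of these 34, 27 were higher and 7 lower in KO, with a median log2 difference of 0.33, while 6315 of all 13169 tested genes were higher, with a median of -0.01. In bulk RNA, more dividing cells and more RNA of a gene per cell cannot be told apart.

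Among the cyclins and their kinase, Cdk1, the kinase that drives entry into mitosis (ENSMUSG00000019942, GRCm38 chromosome 10, 69335146 to 69352938, minus strand), had 1.26, 1.88 and 1.19 CPM in the WT and 1.78, 3.05 and 4.63 CPM in the KO libraries. KO libraries 2 and 3 lay above every WT library and KO library 1 lay below WT library 2, so the groups overlapped. The means were 1.44 ± 0.38 and 3.15 ± 1.43 CPM (SD, n = 3 each), and the log2 difference was 1.13 ± 0.39 (SE; adjusted p = 0.897 by edgeR). Ccna2, cyclin A2, and Ccnb2, cyclin B2, gave differences of 0.58 ± 0.39 and 0.80 ± 0.52. Wee1, the kinase that holds CDK1 inactive, had the highest mean in this group and differed by -0.13 ± 0.22.

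Of the kinetochore and chromosome genes, Cenpf, Top2a and Mki67 were each highest in KO library 3. Cenpf, a large kinetochore protein, had 0.797, 1.45 and 0.724 CPM in the WT and 1.00, 2.03 and 3.20 CPM in the KO libraries, a log2 difference of 1.07 ± 0.47 (SE; adjusted p = 0.897 by edgeR). Top2a, the topoisomerase that untangles sister chromosomes, had 3.52, 4.35 and 1.19 CPM in the WT and 3.22, 6.00 and 10.04 CPM in the KO libraries, a difference of 1.09 ± 0.50. Mki67, a coat of mitotic chromosomes and the usual marker of dividing cells, had 5.05, 5.21 and 1.84 CPM in the WT and 3.00, 7.76 and 10.4 CPM in the KO libraries, a difference of 0.81 ± 0.48. For Top2a and Mki67 the lowest of the 6 libraries was WT library 3, the highest was KO library 3, and KO library 1 was below WT libraries 1 and 2. All 4 chromosome structure genes and all 3 tested kinetochore genes were on the higher side, with Smc4 at 0.14 ± 0.20 and Bub1b, the checkpoint kinase with the highest mean CPM of its group, at 0.27 ± 0.42.

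Of the spindle genes, Tpx2, which activates Aurora A on the spindle, was the one tested member whose groups did not overlap in CPM scaled by the factors of the fit. It had 4.32, 4.42 and 3.75 CPM in the WT and 4.67, 5.17 and 7.61 CPM in the KO libraries, a log2 difference of 0.48 ± 0.25 (SE, adjusted p = 0.897 by edgeR). Its counts were 57 of 12299030 in WT library 3 and 42 of 9691580 in KO library 1, so by library size alone its groups overlapped. Non-overlap with KO higher was found for 4.76% of all tested genes and with KO lower for 4.85%, so 1 higher and 0 lower of 34 are no more than these shares. The other 5 spindle and cytokinesis genes, which include the motors Kif11 and Kif20a, had differences from 0.02 (Kif20a) to 0.39 (Racgap1). Of the mitotic kinases and their partners, Aurka, Aurora A, had the highest mean CPM and a difference of -0.24 ± 0.32, and Plk1, Polo-like kinase, had 0.41 ± 0.40. Cdc20 and Ube2c, the activator and the ubiquitin-conjugating enzyme of the anaphase-promoting complex, gave 0.73 ± 0.45 and 0.07 ± 0.28. Ube2c overlaps the antisense fibre gene Tnnc2, which had 1776 to 4023 counts in total RNA, and since the strand setting of the counting is not given, reads of the 2 genes cannot be told apart.

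The replication genes divided. Rrm2 had 1.33, 2.25 and 1.51 CPM in the WT and 2.22, 2.31 and 3.53 CPM in the KO libraries, a log2 difference of 0.66 ± 0.34 (SE). Pcna, the polymerase clamp, had 7.91, 5.58 and 7.84 CPM in the WT and 7.34, 8.59 and 13.2 CPM in the KO libraries, a difference of 0.45 ± 0.26. For both genes KO library 3 was the highest of the 6 and the groups overlapped. Rrm1, the most abundant of the 38 genes by CPM, differed by -0.03 ± 0.15. In the MCM helicase, Mcm2 had 11.1, 8.55 and 7.70 CPM in the WT and 12.1, 11.5 and 10.7 CPM in the KO libraries, a difference of 0.33 ± 0.19, but 4 of the 6 subunits were on the lower side, and their median was -0.09. Over the 10 replication genes the median was 0.09 with 5 higher, and over the 24 tested mitosis genes it was 0.36 with 22 higher. Scaled by library size alone, 4 of the 10 and 16 of the 24 were higher, with medians of -0.13 and 0.13 against -0.23 for all genes. The difference between the replication and mitosis genes was not tested.

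**Figure D2:**
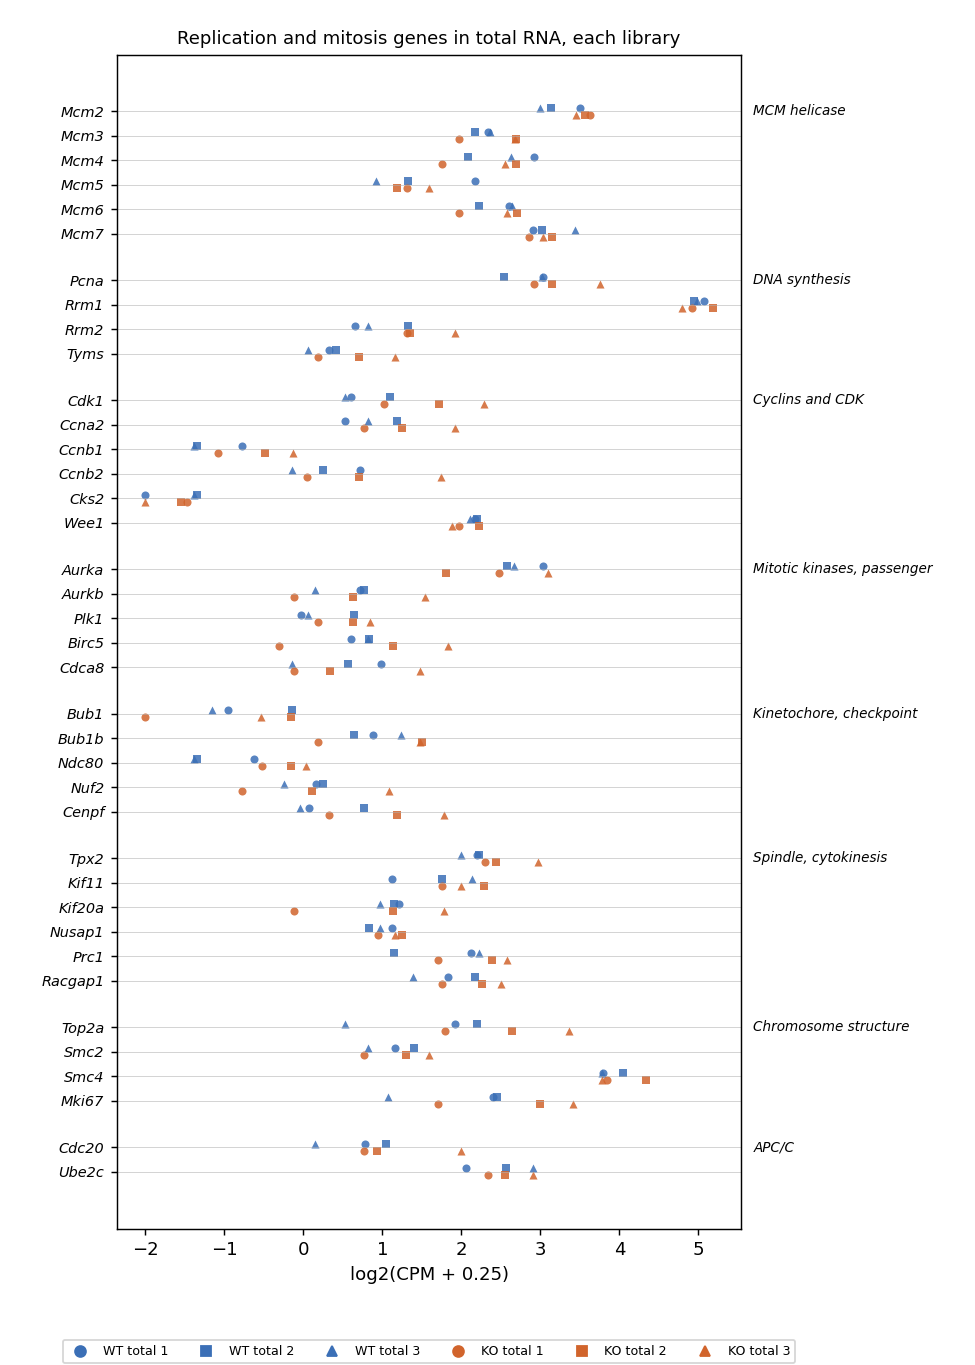
Level of each of the 38 genes in each total RNA library, as log2 of CPM plus 0.25, by role; blue marks WT and orange KO, and the symbol marks the library number. KO library 3 (orange triangles) is the rightmost point for 24 of the 38 genes, and the colours overlap for all tested genes except Tpx2.

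The higher average in KO rested unevenly on the libraries. KO library 3 was the highest of the 6 for 24 of the 38 genes, and for 21 of the 28 mitosis genes. WT library 3 was the lowest for 14 and KO library 1 for 11 of the 38. These ranks depend on the scaling factors of the fit, which were highest for WT library 3 (1.24) and lowest for KO library 3 (0.846). Without KO library 3 the median of the 34 genes was 0.15 with 21 higher, and without KO library 1 it was 0.58 with 30 higher. Without both KO library 1 and WT library 2, the libraries that held Ins2 and Xist or Ucp1 transcripts, it was 0.48 with 28 of 34 higher. Scaled by library size alone it was 0.11 with 20 of 34 higher, against a median of -0.23 for all genes.

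Other genes of the cycle were read from lists of pathway genes. Of 39 further mitosis genes, 27 were tested and 22 were higher in KO, with a median log2 difference of 0.28 and none called. Cdca2 and Spc25, the latter a partner of Ndc80 at the kinetochore, had the smallest p, with 1.18 ± 0.39 and 1.02 ± 0.36 (SE; adjusted p = 0.897 each by edgeR), and their groups did not overlap. Of 42 further replication genes, 37 were tested, 16 were higher and the median was -0.09. Gmnn, geminin, which keeps origins from firing again, gave -0.61 ± 0.24, with every KO library below every WT library. Over all tested genes, groups did not overlap for 4.76% with KO higher and 4.85% with KO lower. Non-overlap was not counted over these lists. Of 20 regulators such as E2F and RB family genes, 18 were tested and 7 were higher, with a median of -0.07; E2f2 gave 0.53 ± 0.25.

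**Figure D3:**
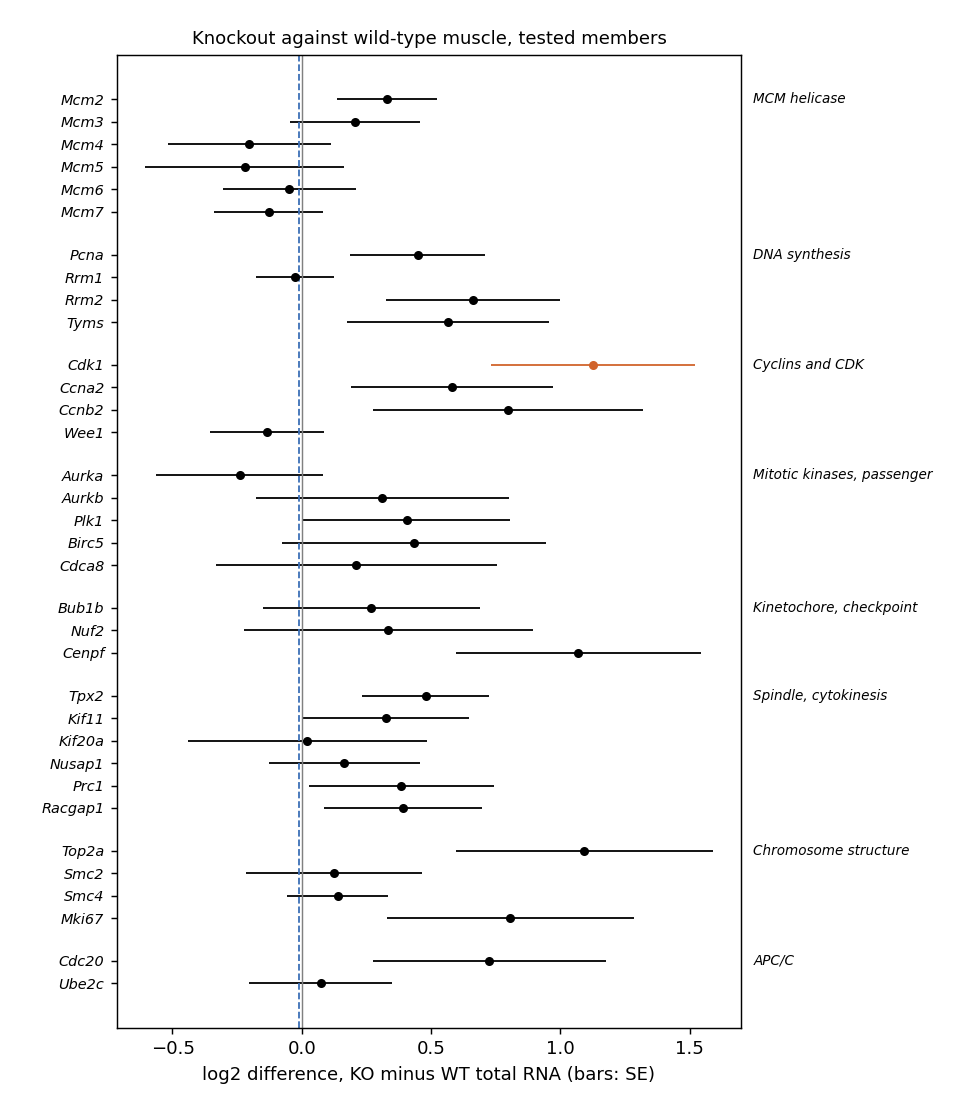
Log2 difference, KO minus WT total RNA, for the 34 tested genes with standard errors, ordered by role; the dashed line is the median of all tested genes (-0.01) and the orange point is Cdk1, the gene with an unadjusted p under 0.05. Spindle, kinetochore and chromosome genes lie to the right of 0, and 4 of the 6 MCM genes lie to the left.

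Markers of the fibres and of other cell types in the same libraries were as follows. The 11 fibre markers summed to 114810 to 208410 CPM in WT and 218600 to 278430 CPM in KO, and 10 of 11 were higher in KO, with a median log2 difference of 0.47. Schwann cell markers (5 genes) summed to 82.9 to 133 CPM in WT and 67.9 to 195 CPM in KO, with 4 of 5 higher and a median of 0.48. Tendon markers (4 genes) summed to 178 to 514 CPM in WT and 233 to 603 CPM in KO, with 4 of 4 higher and a median of 0.32, and fibro-adipogenic markers (8 genes) had 3 of 8 higher and a median of -0.03. Smooth muscle and pericyte markers (6 genes) summed to 538 to 660 CPM in WT and 693 to 980 CPM in KO, and 6 of 6 were higher in KO, with a median of 0.45 and none at 0. Endothelial markers (7 genes) summed to 553 to 745 CPM in WT and 622 to 898 CPM in KO, with 6 of 7 higher. Satellite cell markers (8 genes) summed to 60.1 to 71.5 and 63.0 to 77.3 CPM, with 6 of 8 higher and a median of 0.11. Markers of myoblast fusion and early myosins (6 genes) summed to 31.8 to 61.6 CPM in WT and 67.4 to 96.9 CPM in KO. Of these, 5 of 5 tested were higher, with a median of 0.81. Macrophage and leukocyte markers (8 genes) summed to 173 to 385 CPM in WT and 187 to 266 CPM in KO, and 8 of 8 were lower, with a median of -0.19. Of 8 bone marrow and neutrophil markers, 2 to 6 were at 0 in each library and they summed to at most 2.46 CPM. Mpo and Elane had at most 1 count in any library of either genotype. Of 7 adipocyte markers, 6 were tested and 6 were lower in KO, with a median of -0.72; they summed to 363 to 926 CPM in WT and 271 to 460 CPM in KO. No gene of these lists passed the test, and their part in the levels of the 38 genes was not tested.

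In the IP, WT against KO addresses which transcripts are recovered with the antibody when IMP2 is present, with the KO IP as its background. No gene passed: the quasi-likelihood test of edgeR called 0 of 10730 genes (0% called), with 518 higher and 610 lower at an unadjusted p under 0.05, and DESeq2 called 57 genes. Of the 38 genes, 22 passed the filter on low counts, and 14 were higher and 8 lower in WT, with a median log2 difference of 0.12 against -0.01 for all genes. By edgeR 0 of them were called and 0 had an unadjusted p under 0.05. DESeq2 also called 0 of them. It gave no adjusted p for the 8 genes with the smallest p by edgeR, so it could not call those. The 16 untested genes were mostly mitosis genes, Tyms being the one replication gene among them.

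IP libraries of one genotype differed widely. In the WT IP the 38 genes summed to 290 CPM in library 1 and 116 CPM in library 2, and in the KO IP to 167 and 212 CPM. WT IP library 1 had counts for 35 of the 38 genes, WT IP library 2 for 26, KO IP library 1 for 25 and KO IP library 2 for all 38. The 5 kinetochore and checkpoint genes (Bub1, Bub1b, Ndc80, Nuf2 and Cenpf) had 43 counts together in WT IP library 1 and 0 in WT IP library 2, although the second library was deeper. KO IP libraries 1 and 2 had 3 and 31 counts of them. Replication genes were spread less: they summed to 114.8 and 70.0 CPM in WT and 89.7 and 88.2 CPM in KO, and none was at 0 in any IP library. Mitosis genes summed to 175 and 45.8 CPM in WT and 77.8 and 124 CPM in KO. Macrophage markers, with none of 8 at 0, followed the same library, with 752 and 274 CPM in WT and 439 and 442 CPM in KO, and islet markers (6 genes, none at 0) summed to 46.4 and 358 CPM in WT and 395 and 148 CPM in KO; their part was not tested.

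**Figure D4:**
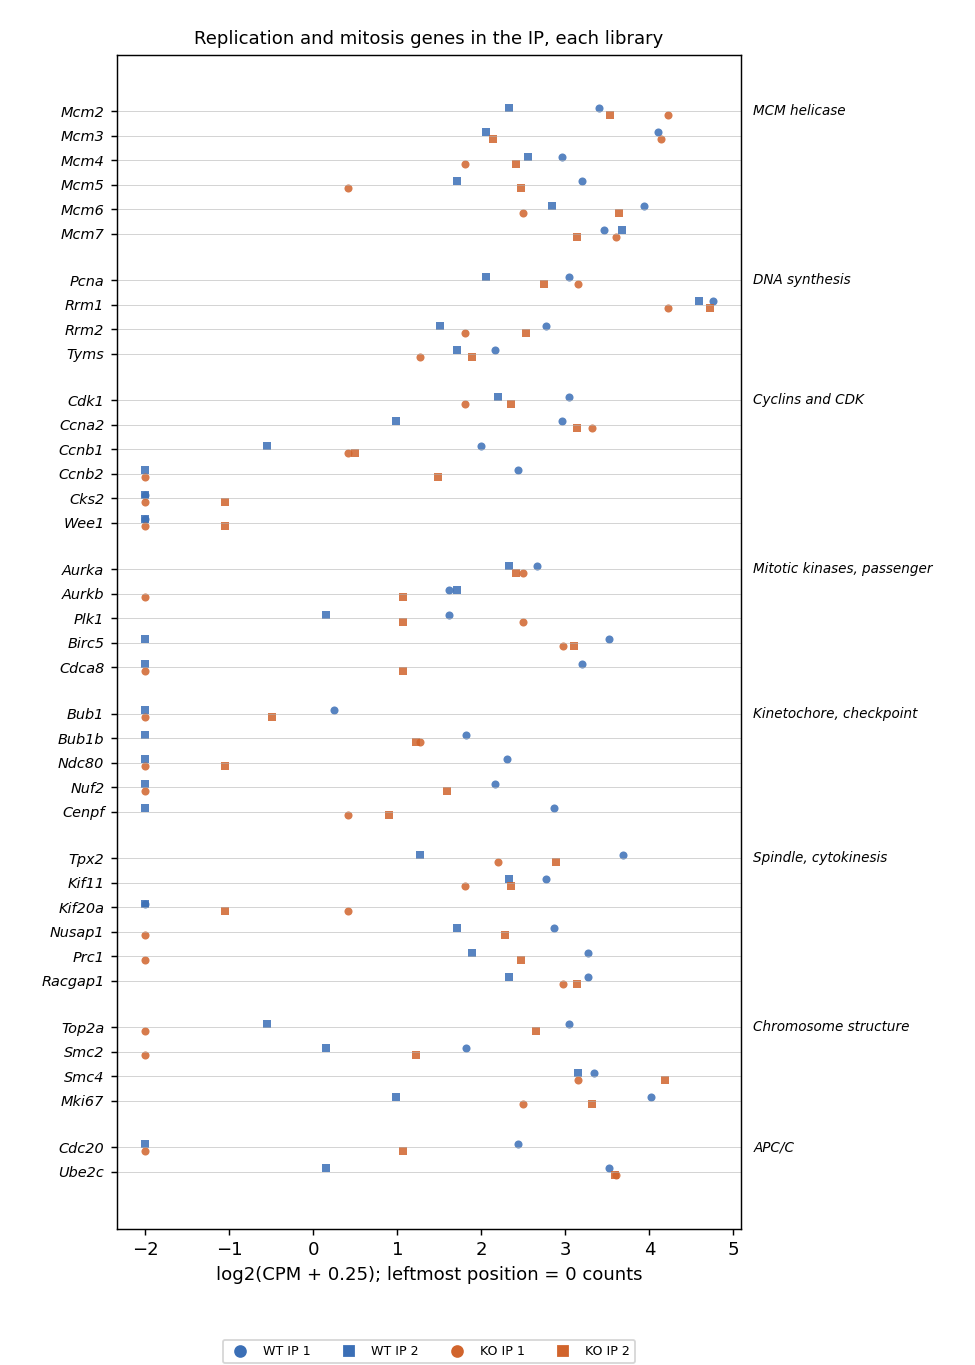
Level of each of the 38 genes in each IP library, as log2 of CPM plus 0.25, by role; the leftmost position is 0 counts, blue marks WT and orange KO, circles library 1 and squares library 2. WT library 1 is the rightmost point for 26 of the 38 genes, and the kinetochore genes of WT library 2 all lie at 0 counts.

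The 8 genes with the smallest p in the IP were spread over the roles. Mcm2 had 10.3 and 4.75 CPM in WT and 18.4 and 11.3 CPM in KO, a log2 difference, WT minus KO, of -0.91 ± 0.57 (SE; adjusted p = 0.593 by edgeR). Ccna2 had 7.5 and 1.73 CPM in WT and 9.72 and 8.54 CPM in KO, a difference of -0.97 ± 0.73. Ube2c had 11.2 and 0.864 CPM in WT and 11.9 and 11.8 CPM in KO, a difference of -0.98 ± 0.76. In these 3 genes both WT libraries were below both KO libraries, for Ube2c narrowly in library 1. Mcm4 was the reverse, with 7.5 and 5.62 CPM in WT and 3.24 and 5.08 CPM in KO and a difference of 0.55 ± 0.70. Groups did not overlap for 1 gene higher and 3 lower in WT of the 22 tested, and for 20.3% of all tested genes higher and 20.8% lower, so neither count exceeds the share among all genes.

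The other 4 overlapped. Smc4 had 9.84 and 8.64 CPM in WT and 8.64 and 18 CPM in KO (-0.63 ± 0.51, SE). Prc1, which bundles the central spindle, had 9.37 and 3.46 CPM in WT and 0 and 5.31 CPM in KO (0.83 ± 0.88). Mcm5 had 8.90 and 3.03 CPM in WT and 1.08 and 5.31 CPM in KO (0.60 ± 0.82), and Nusap1, a spindle-associated protein, had 7.03 and 3.03 CPM in WT and 0 and 4.62 CPM in KO (0.67 ± 0.91). In each case a library of KO was inside or next to the WT range. Without WT IP library 1 the median of the tested genes was -0.78, and Ube2c was called with -3.70 (adjusted p = 0.04995 by edgeR), the one call among the 38 in any fit of this comparison. Without WT IP library 2 the median was 0.62, and without KO IP library 2 it was 0.58.

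Of the other cycle genes, Pola2, a subunit of the primase polymerase, had the smallest p in the IP, with means of 24.8 ± 5.9 (WT) and 48.7 ± 6.2 CPM (KO; SD, n = 2 each) and a log2 difference of -0.99 ± 0.31 (SE; adjusted p = 0.265 by edgeR). The cohesin subunits Smc1a and Rad21 differed in opposite directions, by -0.80 ± 0.30 and 0.66 ± 0.28, and Orc4, an origin recognition subunit, by -1.43 ± 0.56. None passed. Of 27, 14 and 13 tested genes of the replication, mitosis and regulator lists, 15, 7 and 7 were higher in WT.

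Setting each IP against the total RNA of its own genotype asks which transcripts were recovered more or less than their level in muscle. Wee1 was lower in the IP than in total RNA in both genotypes. Other calls in the fit of all 10 libraries were made in 1 genotype only. In WT, Kif20a and Smc4 were called lower and Cdk1, Ccnb1 and Tyms higher in the IP than in total RNA. In KO, Rrm1 was called lower and Ccna2 higher. Each of these calls was lost on leaving out at least 1 library, and no member passed the test of a difference between genotypes. In this fit of all 10 libraries, 17.6% of 14399 genes were called higher and 19.4% lower in the WT IP, and 17.7% were called higher and 18.8% lower in the KO IP. Scaled by library size alone, the KO calls were 4267 higher and 1439 lower in place of 2551 and 2700. Of the 38 genes 35 were tested, without Cks2, Bub1 and Ndc80. In WT 3 of 35 were called higher and 3 lower, and 24 were higher with a median log2 difference of 0.70 against -0.05 for all genes. In KO 1 was called higher and 2 lower, and 16 were higher with a median of -0.07 against 0.03. All of these shares of calls are under the shares for all genes. How often IP libraries lay apart from total RNA libraries was not counted over all genes, so such separation is given below as description only.

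Wee1 (ENSMUSG00000031016, GRCm38 chromosome 7, 110122046 to 110143286, plus strand) gave the lowest recovery. Total RNA held 64, 60 and 62 counts (WT) and 33, 48 and 31 counts (KO) of it, whereas the IP held none in WT and 0 and 1 in KO. In CPM the total RNA levels were 4.58, 4.63 and 4.33 for WT and 3.96, 4.75 and 3.64 for KO, and the 1 count in KO IP library 2 was 0.207. The counts of 0 allow up to 1.39 and 1.18 CPM in the WT IP libraries and 3.27 CPM in KO IP library 1, so that last library alone allows a level near that of KO total RNA. With 3 counts as the limit over both WT IP libraries, the level in the WT IP was at least 7.11-fold lower than in total RNA, and in KO the ratio of IP to total RNA was 0.0561 (exact 95% interval 0.00141 to 0.319, on pooled counts and library size alone). Both contrasts passed (adjusted p = 2.8e-04 in WT and 7.8e-04 in KO by edgeR), as they did in every alternative fit run. Of 10252 genes with at least as many counts in total RNA, 5 had at most 1 count in the IP (0.0488%); these are Wee1, Vash1, Nt5c1a, Fv1 and Gm10602, named after their values were seen. The antisense gene 1600010M07Rik, which overlaps Wee1, had at most 4 counts in any library.

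Kif20a, a motor needed for cytokinesis, was counted 31, 27 and 26 times (WT) and 6, 21 and 29 times (KO) in total RNA, in neither WT IP library, and once in each KO IP library. In CPM the total RNA levels were 2.22, 2.08 and 1.81 for WT and 0.721, 2.08 and 3.41 for KO, and the KO IP levels were 0.961 and 0.207. The WT IP was at least 3.21-fold lower than total RNA (adjusted p = 0.0149 by edgeR), and the KO ratio was 0.224 (exact 95% interval 0.0265 to 0.849; adjusted p = 0.0822). In KO the groups overlapped, since IP library 1 lay above total RNA library 1. Without KO total RNA library 1, Kif20a was called lower in KO too, with a log2 difference of -2.86 (adjusted p = 0.0394 by edgeR). The WT call was lost without either WT IP library (adjusted p = 0.068 and 0.074). Of 11779 genes with at least as many counts in total RNA, 50 had at most 2 in the IP (0.424%). Kif20a overlaps the antisense gene Cdc23, which had 162 to 407 counts in total RNA and 6 to 26 in the IP, and reads of the 2 cannot be told apart here.

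Cdk1 was the clearest gene on the higher side. It had 1.36, 2.01 and 1.26 CPM in WT total RNA and 7.15 and 3.90 CPM in the WT IP, and both IP libraries lay above all 3 of total RNA. The log2 difference was 1.83 ± 0.51 (SE; adjusted p = 0.0123 by edgeR), and without WT IP library 1 it was 1.32 and not called (adjusted p = 0.16). In KO, Cdk1 had 1.92, 3.26 and 4.93 CPM in total RNA and 2.88 and 4.36 CPM in the IP, which overlapped, with a difference of 0.21 ± 0.53.

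Ccnb1, cyclin B1, had 0.358, 0.154 and 0.140 CPM in WT total RNA and 3.36 and 0.390 CPM in the WT IP. The difference of 2.99 ± 0.93 (adjusted p = 0.0217 by edgeR) came from 9 counts in each kind of library and rested on WT IP library 1, without which it was 0.78 (adjusted p = 0.73). Tyms, thymidylate synthase, had 1.07, 1.16 and 0.837 CPM in WT total RNA and 3.79 and 2.73 CPM in the WT IP, and in KO 0.961, 1.48 and 2.11 against 1.92 and 3.11 CPM. Its difference was 1.65 ± 0.56 in WT (adjusted p = 0.0321) and 0.85 ± 0.57 in KO. The WT call of Tyms was lost without any 1 of the 5 WT libraries, where the difference stayed between 1.39 and 1.79, and with no filter on low counts (adjusted p = 0.059).

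On the lower side, Smc4 had 14.6, 17.3 and 14.3 CPM in WT total RNA and 8.83 and 7.79 CPM in the WT IP, a log2 difference of -0.89 ± 0.32 (SE; adjusted p = 0.0429 by edgeR). In KO it had 15.3, 21.4 and 14.3 CPM in total RNA and 7.69 and 16.2 CPM in the IP, a difference of -0.36 ± 0.30. Rrm1 had 36.1, 32.6 and 33.4 CPM in WT total RNA and 24 and 21.4 in the WT IP, and 32.6, 38.6 and 29.4 against 16.3 and 23.4 CPM in KO. In both genotypes its IP libraries lay below its total RNA libraries, a separation whose share over all genes was not counted. The difference passed in KO (-0.69 ± 0.23, adjusted p = 0.03) and not in WT (-0.58 ± 0.22, adjusted p = 0.0524). Scaled by library size alone, the Smc4 and Rrm1 calls were both lost (adjusted p = 0.10 and 0.46), Rrm1 at -0.27. The Smc4 call in WT was also lost without either WT IP library and without WT total RNA library 1 or 2 (adjusted p = 0.062 to 0.15), with differences of -0.79 to -0.998. The Rrm1 call in KO was also lost without either KO IP library and without KO total RNA library 1 or 2 (adjusted p = 0.05045 to 0.13), with differences of -0.52 to -1.05.

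Rrm2 and Ccna2 were counted more in the IP than in total RNA on average. Rrm2 had 1.43, 2.39 and 1.60 CPM in WT total RNA against 5.89 and 2.34 in the WT IP (1.17 ± 0.52, SE; adjusted p = 0.0914 by edgeR). Ccna2 had 1.56, 2.27 and 3.76 CPM in KO total RNA and 8.65 and 7.68 CPM in the KO IP, and rose by 1.66 ± 0.54 on the log2 scale (adjusted p = 0.0266). Both KO IP libraries lay above all 3 of total RNA, and the WT values of 1.29, 2.16 and 1.60 against 6.73 and 1.56 CPM overlapped. The Ccna2 call was lost without either KO IP library and without KO total RNA library 1 or 2 (adjusted p = 0.069 to 0.17).

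Among the remaining genes with the smallest p in KO, Birc5, survivin of the chromosomal passenger complex, had 0.601, 2.08 and 3.52 CPM in total RNA and 6.73 and 7.47 CPM in the IP (1.79 ± 0.83, SE; adjusted p = 0.106 by edgeR). Racgap1, a cytokinesis regulator, had 3.36, 4.85 and 5.75 CPM in total RNA and 6.73 and 7.68 CPM in the IP (0.66 ± 0.42), and its IP libraries also lay above the total RNA libraries. Pcna was lower, with 7.93, 9.20 and 14.1 CPM in total RNA and 7.69 and 5.81 CPM in the IP (-0.70 ± 0.40). Mcm6 overlapped, with 3.96, 6.72 and 6.11 CPM in total RNA and 4.80 and 11 CPM in the IP (0.66 ± 0.41).

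**Figure D5:**
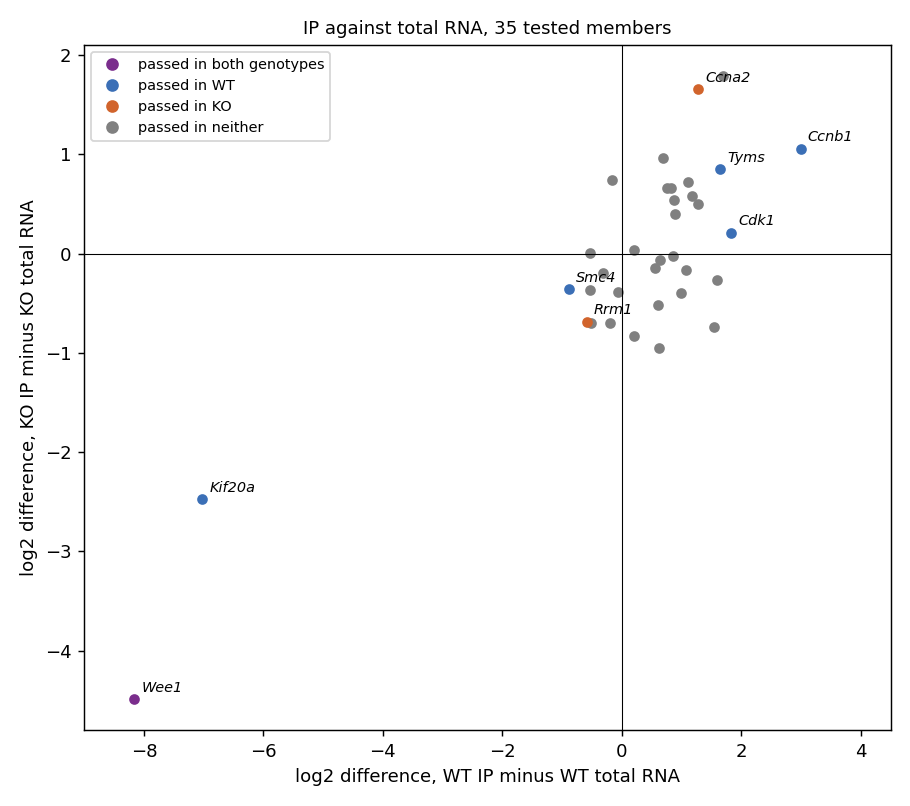
Log2 difference of IP against total RNA for the 35 tested genes, WT on the horizontal and KO on the vertical axis; colours mark the genotype in which a gene passed the test, and the positions of Wee1 and Kif20a on the WT axis are fitted values against 0 counts and no bound. Wee1 passed in both genotypes, and most genes lie between -1 and 2 on both axes.

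The 24 of 35 genes higher in the WT IP depended on WT IP library 1. Without it 10 of 35 were higher, the median was -0.73 and 2 genes were called (Wee1 and Ube2c). Without WT IP library 2, 28 of 36 were higher, the median was 1.20 and 10 were called. In KO the median was -0.68 without KO IP library 2, and 0.36 when scaled by library size alone, where the median of all genes was 0.47. The WT median does not move when Wee1 and Kif20a are placed at their bounds, since both stay the lowest.

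Among the other cycle genes, 2 of 19 tested regulators were called higher and 7 lower in WT, with a median of -0.79, and 0 were called higher and 4 lower in KO, with a median of -0.02 and 9 of 19 higher. Over all genes the shares called were 17.6% higher and 19.4% lower in WT and 17.7% and 18.8% in KO. The KO share of regulators called lower is near the last of these. The WT share called lower, 7 of 19, is above that of all genes, and 13 of 19 were lower in WT. In both genotypes the share called higher is below that of all genes. These differences in shares were not tested. Rbl2, a pocket protein that represses cell cycle genes, differed by -2.55 ± 0.27 in WT and -2.43 ± 0.28 in KO (SE; adjusted p = 1.8e-05 and 3.8e-05 by edgeR), and Tfdp1, the partner of the E2F proteins, by -2.45 ± 0.39 and -3.58 ± 0.48. The cohesin subunit Smc3 fell by 2.56 ± 0.33 in the WT IP, and E2f3 by 1.34 ± 0.24. In KO, Rad21 fell by 1.30 ± 0.20 and Orc2, an origin recognition subunit, by 2.11 ± 0.33. Of 40 tested replication genes 5 were called higher and 1 lower in WT and 7 and 2 in KO, and of 35 further mitosis genes 4 and 3 in WT and 0 and 4 in KO.

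Whether recovery differed between the genotypes was tested as the difference of these contrasts. edgeR called 1 of 14399 genes (0.00694% called), Prps1l3, which is none of the 38. Of the 35 tested genes 0 passed, 25 were on the side of more recovery in WT, and the median was 0.38 against -0.02 for all genes; at an unadjusted p under 0.05, 774 genes of all were higher and 929 lower, and Cdk1 was the one of the 38. DESeq2 called 17 genes and none of the 38. Cdk1 gave 1.62 ± 0.73 (SE; adjusted p = 0.412 by edgeR). This contrast contains the total RNA libraries, where Cdk1 was lower in WT than in KO, and the IP levels alone (7.15 and 3.90 CPM against 2.88 and 4.36) overlapped.

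The next genes in this contrast each rested on few counts. Cenpf had IP levels of 6.31 and 0 CPM (WT) and 0.961 and 1.45 CPM (KO), against 0.859, 1.54 and 0.768 CPM in WT and 1.08, 2.18 and 3.41 CPM in KO total RNA (2.28 ± 1.34, SE). Cdca8, borealin of the passenger complex, had IP levels of 7.99 and 0 CPM (WT) and 0 and 1.66 CPM (KO), against 1.86, 1.31 and 0.698 CPM and 0.721, 1.09 and 2.70 CPM in total RNA (1.86 ± 1.49). In both genes WT IP library 1 was the highest of the 4 and WT IP library 2 held 0 counts. Aurkb, Aurora B, had IP levels of 2.52 and 2.73 CPM (WT) and 0 and 1.66 CPM (KO), against 1.5, 1.54 and 0.907 CPM and 0.721, 1.38 and 2.82 CPM in total RNA (1.38 ± 1.07). Its WT IP libraries were close to each other and above KO IP library 2, while the 0 counts of KO IP library 1 allow up to 3.27 CPM, which is above both WT values.

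Prc1 had IP levels of 8.41 and 3.12 CPM (WT) and 0 and 4.77 CPM (KO), against 4.44, 2.08 and 4.68 CPM and 3.24, 5.34 and 6.11 CPM in total RNA (1.12 ± 0.89, SE). Ccnb1 had 0.961 and 1.04 CPM in the KO IP and 0.240, 0.494 and 0.705 CPM in KO total RNA, with the WT values given above, and its difference of contrasts was 1.94 ± 1.33. Smc4 gave -0.53 ± 0.44. For Kif20a no size is given, since the WT IP held no counts of it. The median of the 35 genes was -0.72 without WT IP library 1, 1.01 without WT IP library 2 and 1.16 without KO IP library 2, and 0.04 when scaled by library size alone, where the median of all genes was -0.40.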

How the data were processed

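Per the submitters' processing notes, reads were handled with STAR and HTSeq on mm10 / GRCm38; versions, annotation release and strand setting are not given in the sources used here. The deposited files hold whole-number read counts per Ensembl gene, not normalized, for 10 libraries made with a TruSeq kit per the labels' protocols. The 5 summary lines were left out; reads outside genes made up 8.54% to 11.2%, ambiguous reads 3.30% to 6.03% and reads aligned to several places 26.1% to 43.3% of a library's reads. Symbols were found for 42462 of 43629 genes, and exon lengths and overlaps came from GENCODE M21 (GRCm38).

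Low-count genes were removed by filterByExpr. After TMM scaling, edgeR 4.0.16 (R 4.3.3) was run with its quasi-likelihood F test, two-sided, group as the only term, Benjamini-Hochberg adjustment over all genes at 0.05. KO against WT used the 6 total RNA libraries, WT against KO in the IP the 4 IP libraries, and IP against total RNA and its difference between genotypes all 10. CPM values use the TMM factors of the same fit. Standard errors come from the F statistic. Ratios of pooled counts have exact 95% intervals.

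The 38 genes, the roles, the other lists and the tests were chosen with earlier results of these data known. Genes given library by library were Igf2bp2, the genes that passed in each comparison or, with fewer than 8, the 8 with the smallest p; in each role the gene with the smallest p and that with the highest mean CPM in total RNA were named, and of other cycle genes up to 4 with the smallest p per comparison.

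Alternatives were RLE size factors, library size alone, no filter, DESeq2 1.42.0, a replicate block, leaving out each library, and leaving out KO total RNA 1 with WT total RNA 2. On simulated counts with known changes, 60.6% of 2-fold and 96% of 4-fold changes were recovered for total RNA (13169 genes), 15.6% and 78.7% for the IP comparison (10730 genes). In fits of 14399 genes the recovery was 21.6% and 77.4% for IP against total RNA in WT, 33.3% and 76.4% for KO, and 7.29% and 48% for the difference. Unchanged genes made up 8 of 163, 1 of 86, 8 of 101, 3 of 102 and 5 of 60 calls. The recovery shares cover the changed genes of each simulation together. Counts were drawn with the dispersion of each fit, and no library was made to stand apart from its group. Only 100 genes were changed at each fold, far fewer than were called in IP against total RNA. The shares may therefore be too favourable for these data. Recovery was not worked out for the replication and mitosis genes, which were scarce, so the shares cannot be read as the recovery of those genes.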

Additional observations from a re-analysis of the deposited data

Results flagged for a closer look

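Recovery in the IP relative to total RNA differed between the genotypes for 1 gene by the test of that difference, Prps1l3, with 5.28 on the log2 scale toward WT (adjusted p = 0.0415 by edgeR); it is none of the 38 genes and was called with TMM or RLE scaling. It was not called when libraries were scaled by size alone, with the replicate number as a block, or on leaving out any 1 library.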

How the results depend on the processing

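Counts of called genes moved with the setting more than the direction of the 38 genes did in total RNA. For KO against WT total RNA, no filter on low counts gave 64 calls (28 higher, 36 lower) and DESeq2 5, and the other settings 0; none of these calls was among the 38 genes, whose median kept its sign in every setting. For WT against KO in the IP, where 0 were called, library size alone gave 1 (Neat1), no filter 103, DESeq2 57, and leaving out 1 library 13 to 146; the median of the 38 genes ranged from -0.78 to 0.62 and their calls from 0 to 1 on leaving out 1 library. On leaving out 1 library, the 6 calls among the 38 genes in WT IP against total RNA became 2 to 10 and the median -0.73 to 1.20; in KO the 3 calls became 1 to 3, the median -0.68 to 0.21, and the 5251 calls over all genes 2148 to 4670, lowest without KO IP library 2. For the difference between genotypes, where 1 was called, library size alone gave 0, no filter 263, DESeq2 17 and leaving out 1 library 0 to 1, with a median of the 38 genes from -0.72 to 1.16. The cause of these moves was not tested; a smaller group leaves fewer samples for the spread, and a lone library is assumed to vary like the other groups.

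Single genes changed sign on leaving out 1 library. In WT against KO in the IP the ranges were -0.0328 to 6.53 for Prc1, -0.35 to 2.38 for Mcm5 and -0.0412 to 6.18 for Nusap1, each lowest without WT IP library 1 and highest without KO IP library 2, and -0.96 to 0.0926 for Smc4, highest without KO IP library 2. In the difference between genotypes they were -5.44 to 3.34 for Cenpf, -0.27 to 2.84 for Ccnb1 and -6.21 to 8.22 for Cdca8, each lowest without WT IP library 1, and -0.82 to 0.26 for Smc4; in KO IP against total RNA Mcm6 ranged from -0.24 to 0.96. Values beyond 5 are fitted against a group at 0 counts and have no size of their own. Each of the 38 genes except Rrm1 had under 100 counts in every IP library, which limits what could be called there.

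Replicate numbers are shared by the groups but nothing in the labels says that they mark a shared animal or batch. Deviations from group means correlated at 0.116, -0.135 and -0.337 for same-numbered total RNA libraries and at -0.0738 in the IP. WT and KO total RNA libraries of unlike number correlated at -0.389 to 0.406. For IP against total RNA the same-numbered values were 0.107 and 0.0947 in WT and 0.126 and 0.150 in KO, with only 2 such pairs each. In a group of 2 libraries the deviations mirror each other, so exchanging the IP numbers only turns the sign. The IP values therefore cannot show pairing, and the numbers were not taken as pairs. With the number as a replicate block, calls were 0 for total RNA, 28 for WT against KO in the IP, 4526 and 4515 for IP against total RNA in WT and KO, and 0 for the difference between genotypes; the median of the 38 genes was 0.25 in total RNA, and 0, 0, 5, 3 and 0 of them were called, the WT call of Tyms being lost (adjusted p = 0.062).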
